A study of Homo sapiens with 3 samples.

Results

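The enzymes that add and remove methyl groups on histone lysines were examined in unstressed HEK-293T cells. Members were chosen by gene symbol on the array annotation and not by any measured value: the KDM demethylases, the KMT2 and KMT5 methyltransferases, the SETD and SMYD proteins, the SUV39H, EHMT, SETDB, EZH and NSD enzymes with EED and SUZ12, and single genes such as DOT1L, SETMAR, JMJD6, PHF2 and PHF8. This gave 60 genes with 192 probe sets, of 19775 genes and 54675 probe sets on the array. A further 2 probe sets are listed for KMT2C or SUZ12 together with other genes and were left out. ASH1L, which the choice also names, was not analysed here. Total RNA of 3 untreated cultures was measured on Affymetrix U133 Plus 2.0 arrays, with 1 array per culture. HEK-293T is a transformed human embryonic kidney line, and by its labels every culture carried a temperature-sensitive SV40 T-antigen gene and grew in DMEM with serum. The high-seeded 48 h culture was started with 750000 cells and harvested after 48 h, the low-seeded 48 h culture with 375000 cells and harvested after 48 h, and the 24 h culture with 1000000 cells and harvested after 24 h. No stressed cells are among these arrays, and a single cell line is represented.

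Histone lysine methylation is written by enzymes that move a methyl group from S-adenosylmethionine to lysine, nearly all of them through a SET domain, DOT1L being the exception. It is erased by the flavin-dependent KDM1 amine oxidases and by the iron- and oxoglutarate-dependent oxygenases of the JmjC family. Methylation of H3K4 is typical of promoters and enhancers in use, that of H3K36 and H3K79 of transcribed gene bodies, that of H3K9 of heterochromatin, that of H3K27 of Polycomb-silenced genes and that of H4K20 of compacted and replicating chromatin.

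Each value is a MAS5 signal, an intensity on a linear scale that the authors had scaled to a common trimmed mean of 500.1 on each array. The background came from 328 probe sets of genes that a kidney line should lack, such as odorant receptors. Their 95th percentile, the detection threshold, lay at 123, 98.2 and 96.0 in the high-seeded 48 h, low-seeded 48 h and 24 h culture, and a probe set had to exceed it on all 3 arrays to count as above background. Probe sets bind with unequal strength, so no gene is ranked against another by its signal. Log2 signals of probe sets above background correlated at 0.984 to 0.987 between pairs of arrays, and those of member probe sets above background at 0.95 to 0.97. Probe sets are not independent replicates. The median SD over the 3 arrays was 0.16 on the log2 scale for member probe sets above background and 0.14 for all such probe sets, against 0.47 for members not above background. Of 7 marker genes listed for the cell line, 6 were above background (NEFL, NEFM, INA, KRT8, KRT18 and VIM), and PAX2 exceeded its threshold on 2 arrays. No measured marker of leukocytes (3 genes), endothelium (3) or mature kidney tubule (4) was above background, and among 5 fibroblast markers COL1A1 was.

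Polycomb repressive complex 2 (PRC2) is shown first with its promoters, as a small complex whose core subunits act together; all of its core genes were above background, as were all genes of 6 other roles. The complex needs a SET-domain enzyme, EZH2 or EZH1, together with EED, which binds trimethylated H3K27, and SUZ12, which holds the complex together. The windows below run from 250 bases before to 50 bases after the annotated start (RefSeq, GRCh38.p14), 5′ to 3′ on the strand of the gene. Capitals mark matches on either strand to an E2F-like motif, TTTNNCGC, the letters bound by cell cycle factors of the E2F family.
EZH2, chr7:148884242-148884541, minus strand: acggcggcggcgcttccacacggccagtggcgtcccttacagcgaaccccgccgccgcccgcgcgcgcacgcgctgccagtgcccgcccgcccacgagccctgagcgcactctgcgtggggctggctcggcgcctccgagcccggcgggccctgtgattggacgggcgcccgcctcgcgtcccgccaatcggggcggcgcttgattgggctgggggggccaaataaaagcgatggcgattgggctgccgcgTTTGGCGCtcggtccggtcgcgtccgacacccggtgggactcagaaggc
EZH1, chr17:42744991-42745290, minus strand: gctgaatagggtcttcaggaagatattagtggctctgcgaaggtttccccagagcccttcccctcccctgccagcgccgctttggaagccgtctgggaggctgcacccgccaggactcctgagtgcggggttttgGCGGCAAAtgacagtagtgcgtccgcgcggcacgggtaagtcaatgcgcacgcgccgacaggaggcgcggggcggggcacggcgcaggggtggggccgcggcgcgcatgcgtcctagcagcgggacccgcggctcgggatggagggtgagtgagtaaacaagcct
EED, chr11:86244503-86244802, plus strand: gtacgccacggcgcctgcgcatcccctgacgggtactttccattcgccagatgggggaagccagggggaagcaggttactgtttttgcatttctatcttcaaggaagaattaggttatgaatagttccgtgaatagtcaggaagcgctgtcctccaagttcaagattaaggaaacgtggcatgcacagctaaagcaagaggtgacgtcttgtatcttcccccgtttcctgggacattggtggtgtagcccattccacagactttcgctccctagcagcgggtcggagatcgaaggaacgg
SUZ12, chr17:31936757-31937056, plus strand: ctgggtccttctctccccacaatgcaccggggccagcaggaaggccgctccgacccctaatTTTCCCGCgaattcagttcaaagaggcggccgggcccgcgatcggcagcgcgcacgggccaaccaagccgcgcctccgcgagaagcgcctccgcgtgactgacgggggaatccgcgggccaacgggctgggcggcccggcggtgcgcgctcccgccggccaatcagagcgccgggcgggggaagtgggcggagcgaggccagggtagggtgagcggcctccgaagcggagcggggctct

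EZH2, EZH1 and SUZ12 each held 1 match in these letters and EED held 0. Among 54 members with a promoter window the motif was present in 9 (16.7%), namely EZH1, EZH2, KDM1B, KMT2D, NSD2, SETMAR, SMYD2, SMYD3 and SUZ12, against 6.90% of 27305 promoters of the same length. The letters of a CCAAT box (CCAAT, either strand) were in 35.2% of member windows and 35.7% of all, and those of a minimal heat shock element (GAANNTTC) in 3 member windows, of PHF8, SETD1A and SUV39H1 (5.56%), against 6.87% of all. No match to the E2F-like motif overlapped either of the others in the 4 windows shown. A match describes the letters and is no evidence of binding. The comparison promoters were not matched to the members for base composition, and what underlies the difference in shares was not tested.

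Among the core genes of PRC2, EZH2, SUZ12 and EED were measured with little spread on the log2 scale and EZH1 with more. EZH2 gave signals of 3515 and 3451 in the high- and low-seeded 48 h cultures and 3312 in the 24 h culture, on its single probe set. SUZ12 gave 5497 and 5667 in the 48 h cultures and 5234 in the 24 h culture on 1 of its 3 probe sets (212287_at), and EED 5160 and 5472 against 5437 on 1 of 2 (209572_s_at). Over the 3 arrays the log2 SD was 0.04 for EZH2, 0.06 for SUZ12 and 0.05 for EED, against 0.18 for EZH1 on 32259_at. In signal units the SD was 104, 218, 171 and 69.1 in the same order. The remaining probe sets of SUZ12 and EED stayed under the threshold on every array. EZH1, the paralog that prevails in cells that do not divide, was above background on 3 of 5 probe sets, the brightest (32259_at) with 472 and 610 in the 48 h cultures against 547 at 24 h. The probe set 239198_at of EZH1 exceeded the threshold on 2 arrays only, with 83.7 and 173 at 48 h and 134 at 24 h, and 211310_at stayed at 4.93, 5.61 and 6.76 in the same order. The erasers of H3K27 were both above background, KDM6A on 3 of 4 probe sets (means of 458 to 832) and KDM6B on 2 of 5 (41386_i_at with 173 ± 40.4 and 41387_r_at with 233 ± 24.8, SD, n = 3 arrays).

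In all, 56 of the 60 member genes (93.3%) were above background with at least 1 probe set, and 115 of the 192 probe sets (59.9%) were, against 51.2% of all genes and 37.9% of all probe sets. The members carry up to 11 probe sets each, so a gene has several chances to pass. Of the 50 member genes with several probe sets, all passed in 12, some in 36 and none in 2, and of the 10 with a single probe set 8 passed. Of the 77 member probe sets that did not pass, 44 were under the threshold on every array, 14 exceeded it on 1 and 19 on 2. Probe sets whose names mark shared sequence (ending in _s_at) passed in 46 of 65 cases (70.8%, against 61.1% of all such probe sets), and plain ones (_at) in 60 of 111 (54.1%, against 30.6%).

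**Figure D1:**
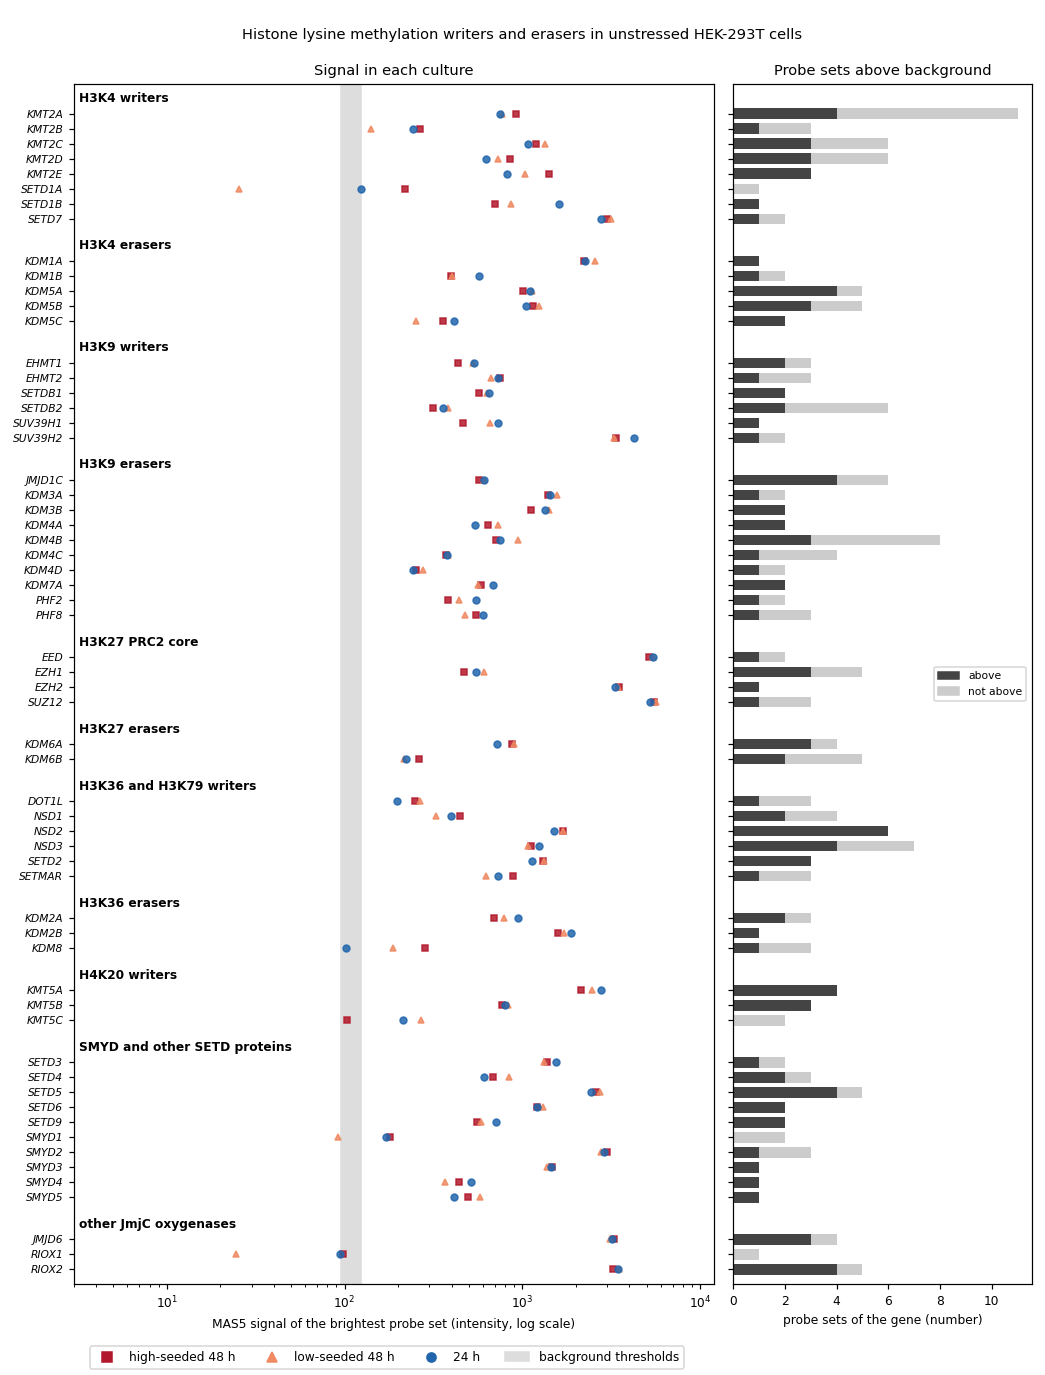
Signals of the brightest probe set of each member gene in the 3 cultures (left, MAS5 intensity on a log scale; squares, triangles and circles are the high-seeded 48 h, low-seeded 48 h and 24 h culture, and the grey band spans the thresholds of 96.0 to 123) and the number of its probe sets above background or not (right). SETD1A, KMT5C, SMYD1 and RIOX1 have no dark bar, and KMT2A has 4 of 11 probe sets above background.

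The 4 genes without a probe set above background were SETD1A, KMT5C, SMYD1 and RIOX1. SETD1A, catalytic subunit of a COMPASS complex that trimethylates H3K4, gave 219 in the high-seeded and 25.4 in the low-seeded 48 h culture and 124 in the 24 h culture on its only probe set, so that the low-seeded array alone kept it under. KMT5C, which makes trimethylated H4K20, missed only in the high-seeded culture, with 103 there, 271 in the low-seeded 48 h culture and 213 at 24 h (224431_s_at). SMYD1, a muscle-restricted methyltransferase needed for heart development, missed in the low-seeded culture, with 91.6 against 181 in the high-seeded one and 172 at 24 h (243045_at). RIOX1, a JmjC hydroxylase of the nucleolus, stayed under the threshold on each array, with 97.5, 24.5 and 94.7 in the high-seeded 48 h, low-seeded 48 h and 24 h culture. For SETD1A, KMT5C and SMYD1 the call therefore rested on 1 array each.

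Writers of H3K4 were above background in 7 of 8 genes. The KMT2 proteins are very large methyltransferases related to Drosophila trithorax. KMT2A, the gene broken in MLL-rearranged leukaemia, passed on 4 of 11 probe sets, with 226981_at at 923 and 770 in the high- and low-seeded 48 h cultures against 751 at 24 h. Its other probe sets spread widely: 229935_s_at stayed at 4.77 to 6.66, whereas 212078_s_at moved between 271 and 43.0 in the 48 h cultures and 127 at 24 h. KMT2C and KMT2D, which methylate H3K4 at enhancers, each passed on 3 of 6, the brightest with 1206 ± 137 and 737 ± 118 (SD, n = 3 arrays). KMT2B passed on 1 of 3, at 267 and 141 in the 48 h cultures and 244 at 24 h. KMT2E, counted here with its family though it has no known methyltransferase activity, passed on all 3. SETD7, a monomethyltransferase of H3K4 and of many non-histone proteins, gave 3007 and 3147 at 48 h against 2770 at 24 h on 1 of 2 probe sets (224928_at).

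All 5 erasers of H3K4 were above background. KDM1A (LSD1), which works with the CoREST proteins, gave 2232 and 2553 at 48 h and 2264 at 24 h on its single probe set. Its relative KDM1B gave 399 and 403 in the 48 h cultures and 570 at 24 h on 1 of 2 (227021_at). Of the trimethyl-H3K4 demethylases of the KDM5 family, KDM5A passed on 4 of 5 probe sets, KDM5B on 3 of 5 with means of 861 to 1145, and the X-linked KDM5C on both, with 340 ± 81.8 and 216 ± 55.7 (SD, n = 3 arrays).

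Each of the 6 writers of H3K9 was above background. SUV39H1 and SUV39H2, which build the trimethylated mark of constitutive heterochromatin, gave 463 and 654 at 48 h against 732 at 24 h, and 3376 and 3267 at 48 h against 4236 at 24 h (1554572_a_at). For both paralogs the 24 h signal was the highest of the 3, an order in which the groups do not overlap, as 70.5% of all probe sets tested showed in one direction or the other. Neither difference passed the test between harvest times (limma, adjusted p = 0.626 for SUV39H1 and 0.209 for SUV39H2). EHMT1 and EHMT2, the G9a pair that dimethylates H3K9 in euchromatin, passed on 2 of 3 and 1 of 3 probe sets, the brightest at 499 ± 56.9 and 714 ± 44.9 (SD, n = 3 arrays). SETDB1, which silences retroelements together with TRIM28, passed on both, with 574 and 630 at 48 h against 647 at 24 h for 203155_at. SETDB2 passed on 2 of 6, and its remaining 4 probe sets had means from 26.2 to 95.1.

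The 10 measured erasers of H3K9 were all above background, KDM3B, KDM4A and KDM7A on every probe set. KDM4C (JMJD2C), whose mouse ortholog is among the cDNA clones of the study's reporter screen, was also among the expressed genes taken there to siRNA knockdown. In that step the heat shock reporter was compared with constitutive control reporters. Among the candidate genes, the study reported a significant decrease relative to these controls for PRKCI only. Both siRNA duplexes against KDM4C lowered the mean activity of the heat shock reporter, and that of the control reporters more. KDM4C passed here on 1 of 4 probe sets (209984_at), which gave 372 and 383 in the 48 h cultures and 377 in the 24 h culture. On the log2 scale that is among the least variable member values, with an SD of 0.021 (5.78 in signal units). In contrast, 214861_at of the same gene gave 149 and 7.98 at 48 h and 70.2 at 24 h. KDM3A, a demethylase of mono- and dimethylated H3K9 that hypoxia induces, gave 1398 and 1573 at 48 h against 1425 at 24 h on 1 of 2 probe sets (212689_s_at), and KDM3B passed with means of 1290 and 1223. KDM4B passed on 3 of 8, and the means of the other 5 lay between 31.2 and 103. KDM4D passed on 220278_at (256 ± 16.5, SD, n = 3 arrays), and its other probe set, 242788_at, reached the threshold in the 48 h cultures only (159 and 174, against 61.7 at 24 h). JMJD1C, whose demethylase activity is disputed, passed on 4 of 6, and the plant homeodomain proteins PHF2 and PHF8 on 1 of 2 and 1 of 3, at 455 ± 83.4 and 539 ± 62.1.

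Among the writers of H3K36, NSD2, which makes the dimethyl mark and is overexpressed in myeloma with a translocated IgH locus, was above background on all 6 probe sets, with means of 218 to 1631. SETD2, the enzyme for trimethylated H3K36, passed on all 3 (means 219, 602 and 1259), NSD1, the gene of Sotos syndrome, on 2 of 4 (391 ± 58.3 and 289 ± 21.9, SD, n = 3 arrays) and NSD3 on 4 of 7 (means of 335 to 1142). SETMAR, a fusion of a SET domain with a transposase, passed on 1 of 3, a probe set ending in _x_at (206554_x_at) at 887 and 629 at 48 h against 725 at 24 h. DOT1L, the only known methyltransferase of H3K79, passed on 1 of 3 with 249 and 265 at 48 h and 198 at 24 h (231297_at). Of the JmjC proteins set against H3K36, KDM2B gave 1587 and 1725 at 48 h against 1872 at 24 h, KDM2A passed on 2 of 3 (208988_at with 691 and 790 at 48 h against 943 at 24 h), and KDM8 is described with the comparison of harvest times. Writers of H4K20 passed in 2 of 3 genes, KMT5A, the cell cycle-regulated monomethyltransferase, on all 4 probe sets (means of 554 to 2458) and KMT5B, which makes the dimethyl mark, on all 3. The brightest of KMT5B (222759_at) gave 764 and 834 at 48 h against 801 at 24 h, so that the groups overlapped.

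Of the SMYD and remaining SETD proteins 9 of 10 were above background, several of which act mainly on other proteins. SETD3 methylates a histidine of actin, and gave 1380 and 1320 at 48 h against 1554 at 24 h (212465_at). SETD6, which methylates the NF-kappaB subunit RELA, passed on both probe sets, and SETD5, a gene of intellectual disability, on 4 of 5. SMYD2, a methyltransferase of p53 among others, gave 2998 and 2776 at 48 h and 2891 at 24 h on 1 of 3 (212922_s_at), and SMYD3 1432 ± 46.9 (SD, n = 3 arrays) on its only probe set. SETD4 passed on 2 of 3 and SETD9 on both, and the single probe sets of SMYD4 and SMYD5 gave 438 and 369 at 48 h against 516 at 24 h, and 492 and 580 at 48 h against 414 at 24 h. JMJD6, a lysyl hydroxylase that modifies splicing factors, passed on 3 of 4 with 3294 and 3134 at 48 h against 3201 at 24 h for 212723_at. RIOX2, a histidyl hydroxylase of a ribosomal protein, passed on 4 of 5, with 213188_s_at at 3406 ± 139.

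The labels differ in harvest time, which allows the 48 h cultures to be set against the 24 h culture. A single member, SETD1B, passed the test. This catalytic subunit of COMPASS, the partner paralog of SETD1A, gave 700 in the high-seeded and 858 in the low-seeded 48 h culture, against 1603 in the 24 h culture, on its only probe set (213153_at). Both 48 h signals lay far below the 24 h signal, and their mean was 0.486 times it. The log2 difference, 48 h minus 24 h, was -1.03 with a standard error of 0.17 (limma across all probe sets tested, adjusted p = 0.00873). The call was lost when the arrays were scaled to equal medians (log2 difference -1.08, limma, adjusted p = 0.129). It was also lost without the mean-variance trend (limma, adjusted p = 0.759). With only the high-seeded or only the low-seeded 48 h array the log2 difference was -1.17 or -0.89. Its sign could not change there, since both 48 h signals lay below the 24 h signal. The lone 24 h array could not be left out.

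The fit used log2(signal + 20.05) and all 22644 probe sets whose mean lay above that of the thresholds, of which 71 (0.314%) passed an adjusted p of 0.05, 54 of them (0.238%) lower and 17 (0.0751%) higher at 48 h. Members made up 131 of these probe sets, of 58 genes, SETD1A and RIOX1 having none, and 1 passed (0.763%). At an unadjusted p under 0.05 there were 11 member probe sets (8.40%), 6 higher and 5 lower at 48 h, against 9.36% of all tested (4.33% higher and 5.03% lower). The median log2 difference was 0.001 over the members and -0.005 over all probe sets, with 66 members higher and 65 lower. For 83 of the 131 (63.4%) both 48 h signals lay on the same side of the 24 h signal, against 70.5% of all. The 24 h group is a lone array assumed to vary like the 48 h pair. That pair differed in cells seeded, so the spread behind the p-values includes any difference due to seeding. Harvest time, cells seeded, RNA integrity number (10.0, 9.6 and 9.5 in the high-seeded 48 h, low-seeded 48 h and 24 h culture) and any batch cannot be told apart. In RNA of whole cultures, fewer cells with a transcript and less transcript per cell cannot be told apart either.

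**Figure D2:**
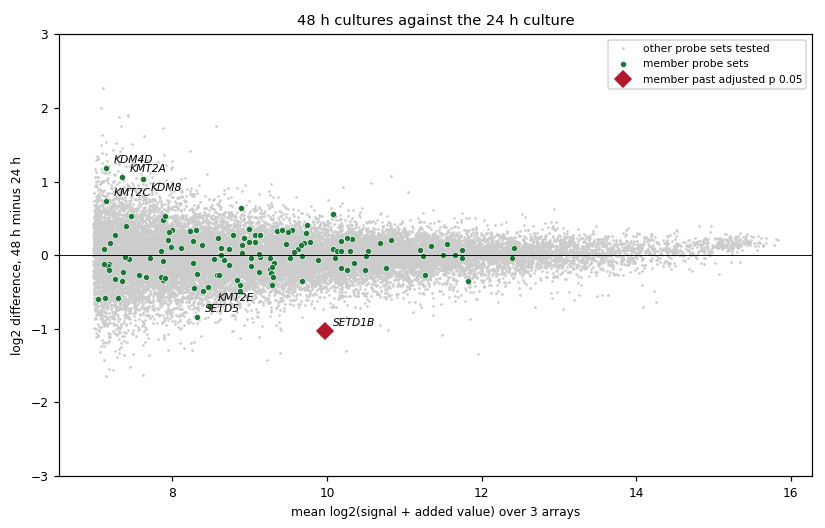
Log2 difference, 48 h minus 24 h (vertical axis), against the mean log2(signal + 20.05) over the 3 arrays (horizontal axis) for 22644 probe sets (grey) and the 131 member probe sets among them (green); the diamond is the member that passed an adjusted p of 0.05. SETD1B lies at -1.03, and members with differences as large, such as KDM4D at 1.19, lie at low signals where the spread is wide.

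**Figure D3:**
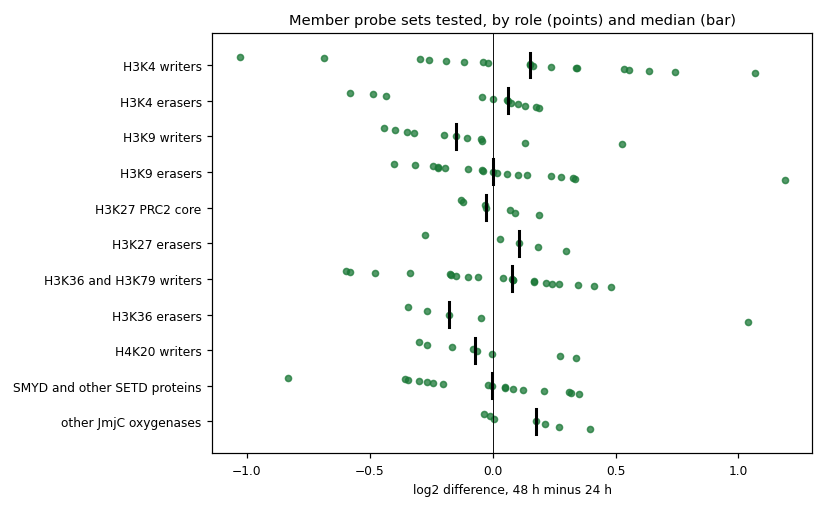
Log2 difference, 48 h minus 24 h, of the 131 member probe sets tested, by role; each point is a probe set and each bar the median of its row. Medians lie between -0.18 for H3K36 erasers and 0.17 for the other JmjC oxygenases, and each row spans 0.

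In every role the differences of the probe sets spanned 0. The median log2 difference was 0.15 over 19 probe sets of H3K4 writers, 0.06 over 12 of H3K4 erasers, -0.15 over 11 of H3K9 writers and 0.00 over 19 of H3K9 erasers. It was -0.03 over 7 probe sets of the PRC2 core, 0.11 over 5 of the H3K27 erasers, 0.08 over 21 of the H3K36 and H3K79 writers, -0.18 over 5 of the H3K36 erasers and -0.07 over 8 of the H4K20 writers. Among the H3K9 writers 9 of 11 probe sets, from 6 genes, were lower at 48 h, and none passed. SUV39H2 had the smallest p (log2 difference -0.35, standard error 0.10, limma, adjusted p = 0.209). Other small roles also leaned one way, with 4 of 5 probe sets of H3K36 erasers and 6 of 8 of H4K20 writers lower. Of the H3K27 erasers 4 of 5 probe sets were higher, and of the other JmjC oxygenases 5 of 7. Over all members tested 66 were higher and 65 lower. For the PRC2 core the range was narrow, -0.13 to 0.19.

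Next to SETD1B the most negative fitted differences were those of SETD5, KMT2E, SETMAR and DOT1L, and none of these passed. SETD5 gave 217 and 274 at 48 h against 450 at 24 h on 1569105_at (log2 difference -0.83, limma, adjusted p = 0.362). This held for that probe set only, since 221806_s_at of SETD5 gave 2589 and 2726 at 48 h against 2435 at 24 h (log2 difference 0.12). SETMAR gave 110 and 80.6 at 48 h against 153 at 24 h on 1554059_at, and DOT1L 153 and 90.3 at 48 h against 187 at 24 h on 226201_at, both not above background. The DOT1L difference of -0.58 was -0.26 with the high-seeded and -0.90 with the low-seeded 48 h array alone. On the probe sets above background it was 0.35 for DOT1L (231297_at) and 0.04 for SETMAR (206554_x_at).

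The probe sets of KMT2E went in opposite directions. The first, 223189_x_at, gave 1405 and 1037 in the 48 h cultures and 816 in the 24 h culture (log2 difference 0.55, standard error 0.18, limma, adjusted p = 0.253). The second, 226100_at, gave 286 and 284 at 48 h and 471 at 24 h (log2 difference -0.69, standard error 0.28, limma, adjusted p = 0.430). The third, 223190_s_at, gave 657 and 490 at 48 h and 649 at 24 h, so that the groups overlapped. All 3 are listed for KMT2E alone, and at these p-values no change of the gene is called. Which transcripts each one detects was not analysed here.

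The most positive fitted differences were those of KDM4D, KMT2A, KDM8 and KMT2C, again without a call. Those of KDM4D (242788_at), KMT2A (216624_s_at) and KMT2C (232940_s_at) came from probe sets under the threshold of 96.0 in the 24 h culture, and with an added value of 100 KMT2C, at 0.46, fell behind KMT2E (223189_x_at), at 0.51. KDM8 (JMJD5), a JmjC hydroxylase first described as a demethylase of H3K36 and also among the cDNA clones of that screen, gave 285 and 186 in the 48 h cultures and 102 in the 24 h culture on 220070_at (log2 difference 1.04, standard error 0.40, limma, adjusted p = 0.400). Its other probe sets were also lowest at 24 h, 241045_at with 130 and 107 at 48 h against 14.7, and 237229_at with 36.8 and 64.2 against 4.48. Both were not above background and not tested. Among all probe sets tested, 70.5% had both 48 h signals on the same side of the 24 h signal. At 24 h the brightest probe set was 1.07 times its threshold. KMT2A gave 223 and 159 at 48 h against 79.6 at 24 h on 216624_s_at (log2 difference 1.07, limma, adjusted p = 0.428) and 606 and 458 against 332 on 212080_at (0.64, limma, adjusted p = 0.414). The brightest probe set of KMT2A, 226981_at, had a difference of 0.16. KMT2C gave 163 and 133.3 against 80.1 on 232940_s_at (0.74), and KDM4D's difference on 242788_at was 1.19 (limma, adjusted p = 0.394), against 0.10 on its detected probe set.

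The 48 h cultures differed in seeding, which gives 1 sample on each side and no test. Counting differences of at least 1 on the log2 scale, 4 of the 131 member probe sets (3.05%) did so between the high- and the low-seeded culture, against 1.75% of all 22644. Of these members 3 were higher in the high-seeded culture, where 1.06% of all probe sets were, and 1 was lower, against 0.689% of all. KMT2A on 212078_s_at was at 271 in the high-seeded and 43.0 in the low-seeded culture (log2 difference 2.21), KDM2A on 208989_s_at at 253 and 87.7 (1.34), and NSD3 on 238496_at at 423 and 183 (1.13). KMT5C went the other way, with 103 in the high-seeded and 271 in the low-seeded culture (-1.24). Of these probe sets only that of NSD3 was above background: in the low-seeded culture KMT2A and KDM2A lay under the threshold of 98.2, and in the high-seeded culture KMT5C lay under that of 123, so their differences are set against signals not above background. For each of these genes except KMT5C a brighter probe set differed by less, 226981_at of KMT2A by 0.25, 208988_at of KDM2A by -0.19 and 225318_at of NSD3 by 0.05. SETD1B differed by -0.29, and SETD1A, which was under the filter, by 2.4. The median log2 difference was -0.002 over the members and 0.004 over all probe sets, and with an added value of 100 only 1 member probe set reached 1.

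Transcripts of partner proteins were mostly above background as well, where 51.2% of all genes were. Many of these enzymes work with other subunits and with readers of the marks, and the writers take their methyl group from S-adenosylmethionine. All 13 COMPASS partners listed, WDR5 and ASH2L among them, were above background, as were all 8 partners and readers of H3K9 methylation, which include TRIM28 and the HP1 proteins. Of the PRC2 partners 7 of 8 were, of the KDM1A partners 8 of 9, and of the Polycomb repressive complex 1 genes 12 of 12 measured. Arginine methyltransferases and their partner WDR77 passed in 9 of 10 genes and genes of methyl donor metabolism in 8 of 9. Of other lysine methyltransferases 5 of 7 measured passed. Over these 8 lists 0 of 151 probe sets passed the test between harvest times in either direction (limma, adjusted p of 0.05), where 0.314% of all did. At an unadjusted p under 0.05 there were 19 (12.6%), 15 higher and 4 lower at 48 h, against 9.36% of all tested, 4.33% higher and 5.03% lower. The median log2 difference lay between -0.15 for the KDM1A partners and 0.12 for the Polycomb repressive complex 1 genes. Those with the lowest adjusted p included MECOM, a PRDM-family factor, with 919 and 859 at 48 h against 576 at 24 h (log2 difference 0.61, limma, adjusted p = 0.201).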

How the data were processed

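Total RNA of 3 cultures was labelled with biotin and hybridised by the authors to 1-colour Affymetrix U133 Plus 2.0 arrays. The deposited values are MAS5 signals (GCOS 1.0 in the submitters' processing notes), an intensity on a linear scale, scaled by the authors to a common trimmed mean. Probe-level values and absent/present calls were not used here, so the background correction within MAS5 could not be changed. MAS5 subtracts mismatch probes, which makes low signals noisy.

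Probe sets were named from the platform annotation, with symbols checked by gene ID against RefSeq GRCh38.p14, which changed 0 member symbols. The annotation pairs 41097 probe sets with a single gene, 1801 with more than 1 and leaves 11777 unnamed. For the background, 224 genes with 328 probe sets were used, of which 127 probe sets belong to olfactory and bitter taste receptors. Of the 328, 4 (3 of KRT10 and 1 of KLK3) exceeded the threshold on all arrays. Limma 3.58.1 (lmFit, eBayes with trend, R 4.3.3) compared harvest times on log2(signal + 20.05), where 20.05 is the median background signal, over probe sets whose mean log2 signal exceeded the log2 of the mean threshold (105.8). The added value shrinks the fold change of weak probe sets. P-values were adjusted by Benjamini-Hochberg over all 22644. With 1 residual degree of freedom per probe set they rest on spread shared across probe sets. Nothing in the sources used here says that the cultures were separate passages, so p-values measure only the spread between these samples. The number of arrays limits the precision.

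Members, lists and tests were chosen with earlier results of these data known. Values per sample are given for members past the test, the 5 largest differences each way, members not above background, up to 8 genes whose probe sets disagreed, the PRC2 core, KDM4C and KDM8, and otherwise to describe a role. Other percentiles, references, normalizations, added values and filters, and each array left out, were alternatives.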

Additional observations from a re-analysis of the deposited data

How the results depend on the processing

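The number of member probe sets above background was 115 and ran from 89 (99th percentile) to 134 (2 of 3 arrays) over alternatives on all probe sets, and was 64 without those ending in _s_at or _x_at, which leave 52 genes to measure. Leaving out 1 array gave 120 to 123 probe sets and 56 to 58 genes. Member genes above background were 56, and 43 where no fewer probe sets of a gene could pass than fail or without shared-sequence probe sets; at the 99th percentile DOT1L, KDM4D, KDM6B, KDM8 and KMT2B were lost. SETD1A, KMT5C and SMYD1 were gained with 2 of 3 arrays. Between harvest times 1 member probe set was called, against 0 with equal medians (7 members at an unadjusted p under 0.05; 12 of all probe sets, 6 higher and 6 lower at 48 h, 905 at an unadjusted p under 0.05) and 0 without the trend (10 members unadjusted; 0 of all, 1369 unadjusted), against 71 of all as reported. Standard errors for SETD1B were 0.29 and 0.20 there, against 0.17; the cause was not tested. Equal medians moved the median of all tested to -0.06, and gave KDM4C on 209984_at a difference of -0.047, against 0.0033. The fold count between seedings was 4, 1 with an added value of 100 and 19 of 192 without the filter; equal medians shifted the median of all probe sets there to -0.17. No paired analysis was possible because the 24 h group is a single array and the labels number no replicates.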
